A study of Bos taurus with 12 samples.

Results

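Cyclin-dependent kinases, their inhibitors and the cyclins were followed in single blastomeres of 2-cell bovine embryos, sorted by the fate of the sister cell. All genes were taken whose array symbol begins with CDK followed by a digit, N, A or L, or is CCN followed by a letter from A to Y with or without digits. The symbols gave 63 of the 15229 genes with a symbol, measured by 99 probes, and 39 of the 63 had 1 probe. By name they fell into 19 kinases, 4 CDK-like kinases, 8 inhibitors, 22 cyclins and 10 associated genes, the last being activators and binding proteins or genes named after them. Each gene had 1 value per replicate, the mean of its probes. CCNB3 was not analysed here.

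A cyclin-dependent kinase is inactive until it binds a cyclin, and the cyclins that drive division are made and destroyed in turn through the cell cycle. Inhibitors of the CDKN1 family bind kinase and cyclin together, whereas those of the CDKN2 family bind CDK4 and CDK6. Other kinases of the family work with their own cyclins on RNA polymerase II and the Mediator complex. The 2-cell bovine embryo divides largely on RNA and protein stored in the oocyte, before the main activation of its own genome.

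Embryos were developed in vitro and split at 2 cells. From each, one blastomere was frozen and its sister cultured alone, and after 7 days the frozen cells were pooled by what the sister had done. In the class BL the sister became a blastocyst, in 2CB it did not divide after separation, and in 8CB, despite the name, the labels describe it as stopping at 4 cells. Below, 2CB and 8CB are called the arrested classes. The labels name no strain, genotype or drug for any class. Each class consisted of 3 independent pools of 15 blastomeres whose RNA was amplified before labelling with Cy3 or Cy5. Of 12 arrays in all, 6 paired BL with 2CB and 6 paired BL with 8CB. Each replicate number from 1 to 3 was run in both dye orientations.

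The deposited values are log ratios of single probes, read here as log2. Which class is the numerator was not settled, so values are called positive or negative as they stand in the deposited table, and no gene is said to be higher or lower in BL. Ratios left as Cy5 over Cy3 should make a pair of swapped arrays depart from their group averages in opposite ways. Over all probes these deviations correlated with a median r of 0.381, above 0 in 5 of 6 pairs. Swapped arrays were therefore averaged as deposited, and the values after a turn by the labelled dyes accompany the members that met the naming threshold explained below. A ratio carries no level, so neither the presence of a transcript nor that of an oocyte marker could be read, and in pooled cells fewer cells carrying a transcript and less of it per cell cannot be told apart. Of 13 measured oocyte and early embryo markers, 9 had an unadjusted p under 0.05 against 2CB, where 18.0% of all genes did, and 8 of the 9 were positive, with a median of 0.32 over the list and BMP15 at 0.98. Against 8CB it was 1 of 13, where 11.0% of all genes did, with a median of 0.16. The counts for cumulus and granulosa markers were 1 of 12 in each comparison, for sperm markers 1 of 8 and 0 of 8, and for blood markers 0 of 7 in each. What part these markers have in the values below was not tested.

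No member passed an adjusted p under 0.05 in either comparison by limma, nor did any other gene with a symbol (0.0% of 15229 in both). The threshold for naming was therefore an unadjusted p under 0.05. Against 2CB, 13 of the 63 members (20.6%) met it, where 18.0% of all genes did. Of those, 6 were positive and 7 negative, beside 8.54% and 9.49% of all genes. Against 8CB it was 11 of 63 (17.5%), where 11.0% of all genes did, with 7 positive and 4 negative beside 5.61% and 5.42%. All 3 replicates lay on one side for 32 of 63 members (50.8%) against 2CB and for 20 of 63 (31.7%) against 8CB, beside 45.0% and 29.2% of all genes. Against 2CB 18 of the 32 were positive and 14 negative, beside 24.2% and 20.8%, and against 8CB 10 and 10, beside 15.6% and 13.7%. How these shares of members differ from the background was not tested.

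Some other fits called members. In the first, the 12 arrays were kept apart and a random block tied the swapped arrays of each number within a comparison. There limma called 7 of 63 members against 2CB, where 6.34% of all genes were called, and 4 of 63 against 8CB, where 1.82% were. With the values turned by the labelled dyes it called 4 of 63 in each comparison, where 5.96% and 2.94% of all genes were called. Restricted to the arrays with BL in Cy5, it called 8 and 3 members, where 10.6% and 2.65% of all genes were called. Restricted to those with BL in Cy3, it called no member in either comparison. At an unadjusted p under 0.05, members numbered 17 and 13 under the random block (21.5% and 13.6% of all genes), 21 and 15 with the replicate number as a fixed term (25.9% and 17.0%) and 19 and 18 when turned (28.3% and 24.0%). With BL in Cy5 alone there were 26 against 2CB, where 30.8% of all genes met it. The genes called under the random block or when turned are given with their adjusted p below. With BL in Cy5 alone the called members were CDK2AP1, CDK2AP2, CDK2, CCND3, CDK10, CDKN2B, CCNA2 and CDKN2AIP against 2CB, and CDK2AP2, CCNB1 and CDK2AP1 against 8CB.

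The kinases lay mostly on the positive side against 2CB, 16 of 19 with a median log2 ratio of 0.08, beside 54.2% of all genes and a median of 0.01. Against 8CB, 9 of 19 were positive, beside 52.6% of all genes. CDK2, CDK5 and CDK14 met the naming threshold against 2CB, all positive (3 of 19, 15.8%), where 18.0% of all genes did. CDK2 and CDK8 met it against 8CB, on opposite sides (2 of 19, 10.5%), where 11.0% of all genes did. The majority against 2CB was 15 of 19 after quantile normalization and 10 of 19 with the values turned by the labelled dyes. Against 8CB, 7 of 19 were positive after quantile normalization and 12 of 19 when turned.

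CDK2, which pairs with cyclins E and A to drive DNA replication, had the smallest adjusted p of all members against 2CB. Its log2 ratios in replicates 1 to 3 were 0.40, 0.32 and 0.19, a mean of 0.31 ± 0.06 (SE, n = 3; limma adjusted p = 0.106). Against 8CB they were 0.08, 0.21 and 0.24, a mean of 0.17 ± 0.06 (adjusted p = 0.347). Here and below the SE is that of limma, from a spread shared by both comparisons, and not of the 3 printed values alone. All 6 averaged values of CDK2 were positive, and the lowest was replicate 1 against 8CB. The random block called CDK2 against 2CB (adjusted p = 0.0246). Turned by the labelled dyes, its values were 0.05 and 0.04.

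CDK1, the kinase that brings cells into mitosis with cyclin B, spread widely between replicates. It had 0.46, -0.06 and 0.14 against 2CB and 0.50, -0.52 and 0.17 against 8CB, with means of 0.18 ± 0.20 and 0.05 ± 0.20 (SE, n = 3). In both, replicate 1 was the highest and replicate 2 the lowest, so the sign of CDK1 depended on the replicate. CDK4, which answers to the D cyclins, lay at -0.18, 0.12 and -0.01 against 2CB and at -0.04, -0.04 and 0.19 against 8CB. CDK6, its closest relative, stayed between -0.08 and 0.07 in all 6 values. The 95% interval for CDK6 ran from -0.04 to 0.15 against 2CB and from -0.13 to 0.06 against 8CB.

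CDK5, a kinase best known from neurons, held the most positive mean of the 19 kinases against 2CB. Its values there were 0.37, 0.44 and 0.46, a mean of 0.42 ± 0.13 (SE, n = 3; adjusted p = 0.185). Against 8CB replicate 1 lay on the other side, at -0.28 beside 0.30 and 0.38. CDK14, which binds cyclin Y at the membrane, had 0.53, 0.20 and 0.17 against 2CB (0.30 ± 0.10, adjusted p = 0.200) but -0.02, -0.18 and 0.18 against 8CB. All 3 values of both genes were positive against 2CB, and neither gene kept 1 side against 8CB. After the turn, CDK5 was at 0.03 and CDK14 at -0.01 against 2CB.

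The kinases that act on transcription differed among themselves. CDK7, the catalytic subunit of the CDK-activating kinase and a part of TFIIH, had -0.24, -0.18 and -0.02 against 2CB and was the most negative kinase there, at -0.15 ± 0.07 (adjusted p = 0.350). Against 8CB it had 0.06, -0.25 and -0.10. CDK9, which releases paused polymerase, had 0.35, 0.31 and -0.02 against 2CB and -0.17, 0.35 and -0.16 against 8CB. CDK8, the kinase of the Mediator complex, lay near 0 against 2CB, with -0.01, 0.13 and -0.08, and below 0 in all 3 replicates against 8CB, with -0.25, -0.09 and -0.22 (mean -0.19 ± 0.06, SE, n = 3; adjusted p = 0.322). Its paralog CDK19 had 0.50, 0.40 and -0.04 against 2CB and -0.31, 0.16 and -0.44 against 8CB. With the dyes turned, CDK8 was at -0.07 against 8CB, and CDK19 was at -0.24 against 2CB, on the other side from its deposited mean of 0.29. Replicate 3 was the lowest of the 3 for CDK9 against 2CB and for CDK19 in both comparisons.

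The remaining kinases had means between -0.16 and 0.26 in both comparisons. CDK12 (0.24) and CDK16 (0.26) had the most positive of these against 2CB, and CDK13 and CDK17 the most negative against 8CB, each at -0.16. CDK3, CDK10, CDK15, CDK18 and CDK20 all lay within 0.08 of 0 in both comparisons.

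**Figure D1:**
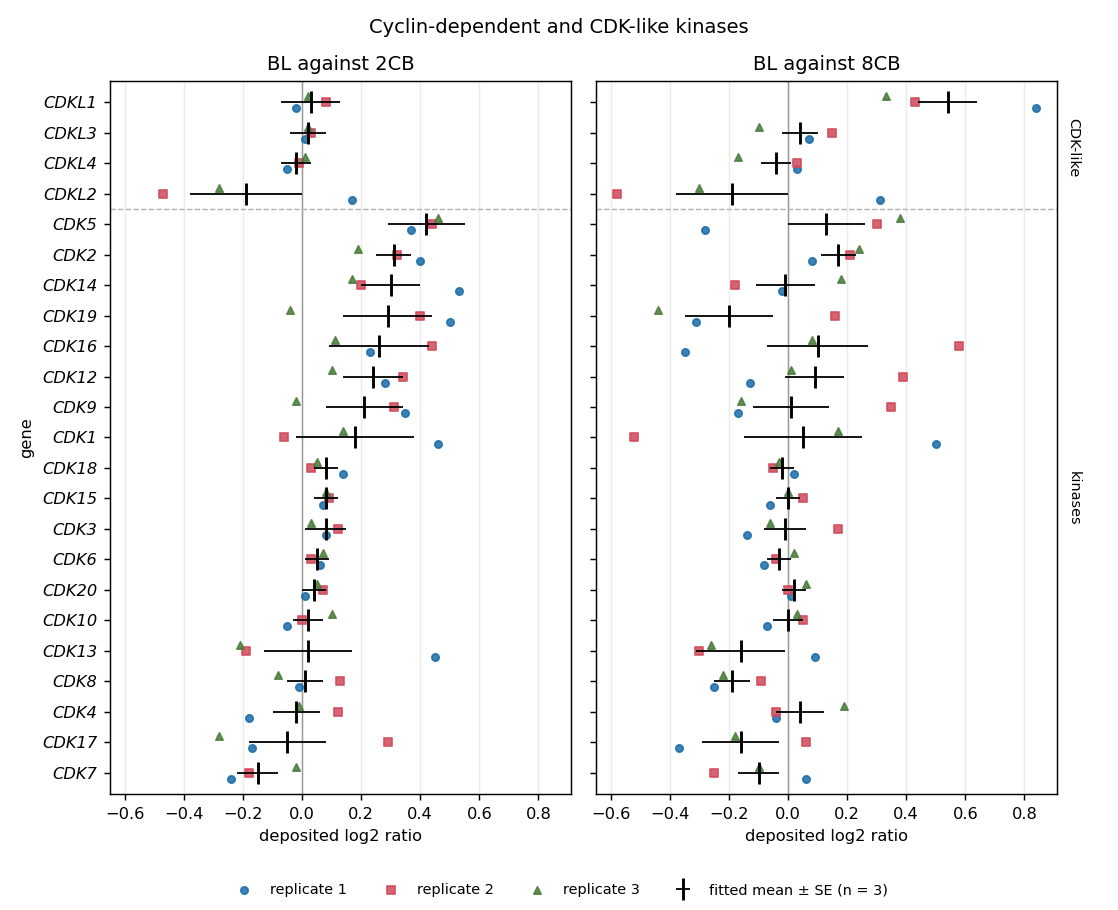
Deposited log2 ratios (horizontal axis) of the 19 kinases and 4 CDK-like kinases (vertical axis), with 1 panel for BL against 2CB and 1 for BL against 8CB. Small points are the 3 replicates, each the mean of 2 dye-swapped arrays, and the large marks are means with SE; 16 of the 19 kinases have a positive mean against 2CB and 9 of 19 against 8CB.

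For some kinases with several probes, the probes of one gene stood apart. Of the 24 members with more than 1 probe, 11 had probes on both sides of 0 in each comparison. The same share over all genes was not counted. Some of these splits were narrow, as for CDK4 with probes at -0.09 and 0.05 against 2CB. The 3 probes of CDK12, which phosphorylates polymerase during elongation, gave -0.40, 0.44 and 0.67 against 2CB and -0.52, 0.36 and 0.43 against 8CB. Each of these probes kept its side in both comparisons, so the mean of CDK12 stands for none of them. The widest gap against 2CB was 1.11, between the probes of CDK13 at -0.55 and 0.56. For CDK2 the 3 probes gave -0.01, 0.29 and 0.64 against 2CB and 0.01, 0.22 and 0.29 against 8CB, so 1 of its probes lay at 0 in both. For CDK5 all 3 were positive against 2CB, at 0.23, 0.30 and 0.74. The 4 probes of CDK8 ran from -0.17 to 0.49 against 2CB, where their mean lay near 0, and from -0.57 to 0.28 against 8CB. Those of CDK9 gave -0.11 and 0.53 against 2CB. Whether such probes read different transcripts was not tested.

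**Figure D2:**
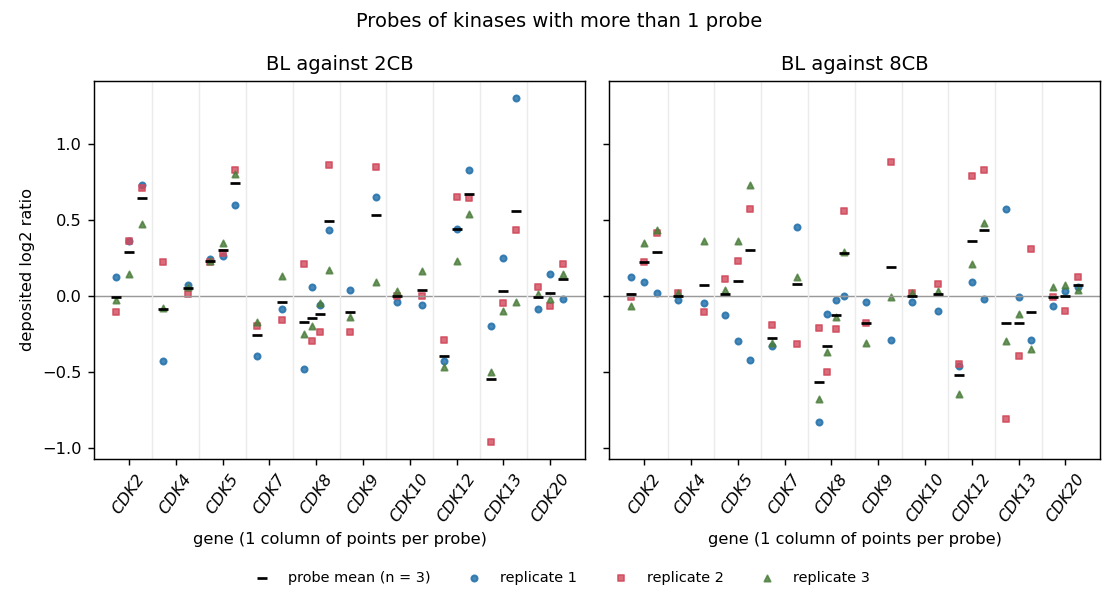
Deposited log2 ratios (vertical axis) of each probe of the kinases with more than 1 probe (horizontal axis), with 1 panel per comparison and 1 column of points per probe. Points are the 3 replicates; the CDK12 probes lie at -0.40, 0.44 and 0.67 on average against 2CB, and those of CDK5 are all above 0 there.

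The 4 CDK-like kinases, named for sequence likeness to the family, were led by CDKL1. Against 8CB it had 0.84, 0.43 and 0.33, a mean of 0.54 ± 0.10 (SE, n = 3; adjusted p = 0.170). Against 2CB it had -0.02, 0.08 and 0.02, so the 2 sets of values did not overlap. Turned by the labelled dyes, CDKL1 was at -0.19 against 8CB. CDKL2 averaged -0.19 in both comparisons, and CDKL3 and CDKL4 lay within 0.04 of 0.

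Of the 8 inhibitors, 1 (12.5%) met the naming threshold in each comparison, where 18.0% of all genes did against 2CB and 11.0% against 8CB. Both genes belong to the CDKN2 family. CDKN2D, an inhibitor of CDK4 and CDK6, had 0.71, 0.56 and 0.87 against 8CB, a mean of 0.71 ± 0.16 (SE, n = 3; adjusted p = 0.210). Against 2CB replicate 1 was as high, at 0.82, but replicates 2 and 3 were at 0.09 and 0.07. The random block called CDKN2D against 8CB (adjusted p = 0.0405), and turned by the labelled dyes it was at -0.07 there.

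CDKN2B, another inhibitor of CDK4 and CDK6 and a known target of TGF-beta signalling, lay on the negative side in all 6 values. It had -0.18, -0.85 and -0.38 against 2CB, a mean of -0.47 ± 0.14 (adjusted p = 0.185, and 0.0335 with the random block). Against 8CB it had -0.07, -0.51 and -0.30, a mean of -0.29 ± 0.14 (adjusted p = 0.547). Replicate 2 was the lowest and replicate 1 the nearest to 0 in both comparisons, and turned by the labelled dyes CDKN2B was at -0.14 and -0.13. CDKN2C had 0.10, -0.04 and -0.35 against 2CB and 0.44, -0.06 and -0.15 against 8CB, again with replicates on both sides. CDKN2A stayed between -0.10 and 0.03 in all 6.

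The CDKN1 inhibitors, which act on CDK2 complexes, had means from -0.09 (CDKN1B against 8CB) to 0.19 (CDKN1A against 8CB). CDKN1A, the inhibitor that p53 induces after DNA damage, had -0.06, -0.19 and 0.14 against 2CB and 0.35, -0.19 and 0.42 against 8CB. Its 95% interval was -0.35 to 0.28 against 2CB and -0.12 to 0.51 against 8CB, so a difference of either sign was not excluded. CDKN1B had -0.16, -0.05 and 0.22 against 2CB and -0.20, -0.02 and -0.04 against 8CB. CDKN1C averaged -0.03 and -0.02, each ± 0.04. CDKN3, a phosphatase that removes the activating phosphate of CDK2, averaged -0.02 and -0.07, each ± 0.04. None of the CDKN1 genes nor CDKN3 met the naming threshold in either comparison.

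The 10 associated genes held more named values than any of the other classes against 2CB, 6 of 10 (60.0%), where 18.0% of all genes met the threshold. Against 8CB it was 3 of 10 (30.0%), where 11.0% of all genes did. CDK2AP2, a small protein related to the CDK2-binding CDK2AP1, had the most positive mean of all members in both comparisons. It had 1.21, 1.14 and 0.69 against 2CB, a mean of 1.01 ± 0.21 (SE, n = 3), which is a ratio of 2.02 (adjusted p = 0.124). Against 8CB it had 0.37, 1.5 and 0.98, a mean of 0.95 ± 0.21 and a ratio of 1.93 (adjusted p = 0.217). All 6 values were positive, and replicate 1 against 8CB was the lowest. On single arrays CDK2AP2 ranged from -0.06 to 1.54 against 2CB and from -0.16 to 1.89 against 8CB. The random block called it in both comparisons (adjusted p = 0.0153 and 0.0356), and turned by the labelled dyes it was at 0.45 and 0.33.

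CDK2AP1, known as a partner of CDK2 and a subunit of the NuRD chromatin complex, had less spread. Its values were 0.24, 0.32 and 0.27 against 2CB (0.28 ± 0.06, adjusted p = 0.127) and 0.06, 0.31 and 0.09 against 8CB (0.15 ± 0.06, adjusted p = 0.432). It was called against 2CB under the random block (adjusted p = 0.0191). CDK2AP1 was also positive when turned, at 0.31 and 0.22 (adjusted p = 0.0125 and 0.0381). Under both readings of the dyes its averages were positive, though single arrays with BL in Cy3 lay between -0.16 and 0.09.

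CDK5R2, an activator of CDK5 known from neurons, had 0.34, 0.65 and 0.33 against 2CB (0.44 ± 0.17, adjusted p = 0.255) and 0.03, 0.94 and 0.47 against 8CB (0.48 ± 0.17, adjusted p = 0.376). CDK5R2, once turned, was on the other side, at -0.14 and -0.10. Its paralog CDK5R1 had replicates on both sides in each comparison, with means of 0.22 and -0.13, each ± 0.19. The other named genes of the class were negative against 2CB. CDKN2AIPNL had -0.17, -0.46 and -0.25 (-0.29 ± 0.10, adjusted p = 0.215), beside 0.26, -0.21 and 0.04 against 8CB. CDK5RAP1, which despite its name is an enzyme that modifies transfer RNA, had -0.23, -0.29 and -0.19 (-0.24 ± 0.07, adjusted p = 0.182). The probes of CDK5RAP1 stood at -0.43 and -0.04 there. CDKN2AIP, a protein that binds the alternative product of CDKN2A, had -0.15, -0.13 and -0.11 (-0.13 ± 0.04, adjusted p = 0.169). The random block called CDK5RAP1 (adjusted p = 0.0367) and CDKN2AIPNL (adjusted p = 0.0417) against 2CB. With the dyes turned, CDKN2AIPNL was at -0.09, CDKN2AIP at -0.12 and CDK5RAP1, on the other side, at 0.09. The named genes of the class did not share a side against 2CB, with 3 positive and 3 negative.

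**Figure D3:**
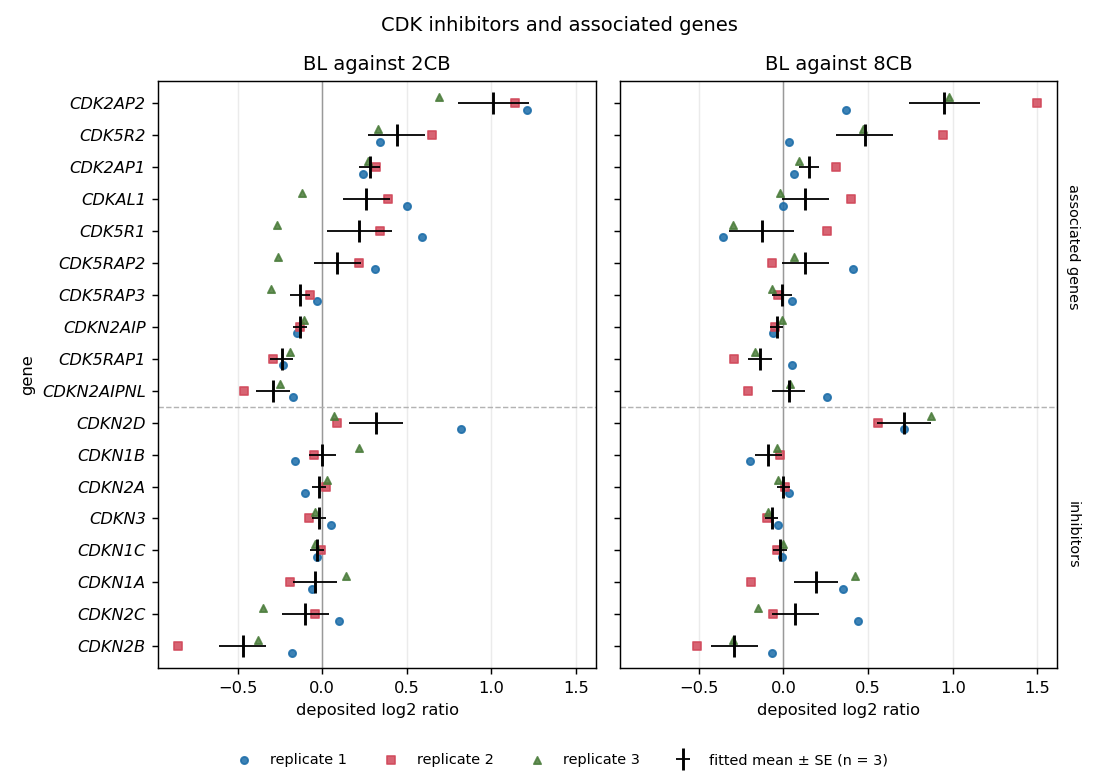
Deposited log2 ratios (horizontal axis) of the 8 inhibitors and 10 associated genes (vertical axis), with 1 panel for BL against 2CB and 1 for BL against 8CB. Small points are the 3 replicates and large marks the means with SE; CDK2AP2 stands at 1.01 and 0.95, CDKN2D at 0.32 and 0.71, and CDKN2B at -0.47 and -0.29.

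The cyclins leaned to the negative side against 2CB, with 15 of 22 below 0 and a median of -0.07, where 45.8% of all genes were below 0. Of 22 cyclins 3 (13.6%) met the naming threshold there, where 18.0% of all genes did. All 3 were negative: CCNK, CCNH and CCNYL1. Against 8CB 13 of 22 were below 0, beside 47.4% of all genes, and 4 of 22 (18.2%) met it, beside 11.0%. These were CCNB1, CCNH and CCNE1 on the negative side and CCNA2 on the positive.

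None of the 10 cell cycle cyclins met the threshold against 2CB, where 18.0% of all genes did. Against 8CB 3 of 10 (30.0%) did, where 11.0% of all genes did. CCNB1, the cyclin B that activates CDK1 at mitosis, had -0.33, -0.60 and -0.47 against 8CB, a mean of -0.47 ± 0.08 (SE, n = 3; adjusted p = 0.153). Against 2CB it had 0.04, -0.18 and -0.28, a mean of -0.14 ± 0.08 (adjusted p = 0.409). On all 6 single arrays against 8CB CCNB1 was negative, from -0.71 to -0.22, whichever dye BL carried. The random block called it against 8CB (adjusted p = 0.0168), and turned by the labelled dyes it was at -0.09. CCNB2, the other B cyclin measured, had 0.31, 0.05 and -0.12 against 2CB and -0.26, -0.02 and 0.03 against 8CB. Its interval of -0.32 to 0.15 against 8CB overlapped that of CCNB1, -0.66 to -0.27.

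CCNE1, a cyclin that carries CDK2 into S phase, had -0.22, -0.15 and -0.52 against 8CB (-0.29 ± 0.09, adjusted p = 0.311). Against 2CB it had 0.06, -0.23 and -0.05. CCNE1, once turned, was on the other side against 8CB, at 0.07. CCNE2, its paralog, stayed between -0.11 and 0.08 throughout. CCNA2, the A cyclin of somatic and early embryonic cells, had 0.08, 0.19 and 0.13 against 8CB (0.13 ± 0.05, adjusted p = 0.372) and -0.07, -0.04 and 0.07 against 2CB. The probes of CCNA2 stood at 0.22 and 0.05 against 8CB. CCNA1, the A cyclin known from the germ line, had -0.04, -0.03 and -0.13 against 2CB and 0.01, -0.09 and -0.12 against 8CB.

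The D cyclins, which couple growth signals to CDK4 and CDK6, had small averaged ratios. CCND1 averaged 0.03 ± 0.04 against 8CB, with a 95% interval from -0.08 to 0.14, and from -0.11 to 0.11 against 2CB. CCND2 had 0.05, 0.13 and 0.08 against 2CB (0.09 ± 0.04, adjusted p = 0.300). CCND3 had 0.02, 0.03 and 0.16 against 2CB and 0.01, 0.01 and 0.02 against 8CB. CCND2 and CCND3 were positive in all 3 replicates against 2CB, as were 24.2% of all genes. CCNF, which marks proteins for destruction, averaged -0.06 and -0.01.

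Among the 6 transcription cyclins 5 were negative against 2CB, with a median of -0.19, beside 45.8% and 0.01 over all genes. CCNK, the partner of CDK12 and CDK13, was the most negative of all members there. Its values were -0.66, -0.66 and -0.60, a mean of -0.64 ± 0.17 (SE, n = 3; adjusted p = 0.165, and 0.0196 with the random block). The 3 replicates of CCNK spanned 0.06 (SD 0.03, beside 0.51 against 8CB, which the SE also takes in). Its 6 single arrays ran from -0.80 to -0.44. Against 8CB it had 0.18, -0.78 and -0.02, so only replicate 2 was as far from 0. Turned by the labelled dyes, CCNK was at 0.13 against 2CB.

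CCNH, the cyclin that binds CDK7 in the CDK-activating kinase, lay on the negative side in all 6 values. It had -0.46, -0.34 and -0.27 against 2CB (-0.36 ± 0.13, adjusted p = 0.240) and -0.13, -0.83 and -0.65 against 8CB (-0.53 ± 0.13, adjusted p = 0.238). CCNH was the most negative member against 8CB, where the random block called it (adjusted p = 0.0354). After the turn, CCNH was at -0.04 against 2CB and -0.15 against 8CB. MNAT1, which joins CDK7 and CCNH into 1 complex, averaged -0.06 ± 0.18 and 0.19 ± 0.18. Of the 3 subunits of that complex, CCNH was negative in all 6 averaged values and CDK7 in 5 of 6. MNAT1 lay between -0.14 and -0.0 against 2CB, and had 0.74, -0.29 and 0.13 against 8CB. Whether the 3 subunits differ was not tested. CCNT1, a partner of CDK9, had -0.20, 0.25 and 0.11 against 2CB and -0.02, 0.16 and 0.15 against 8CB. CCNC, CCNL2 and CCNT2 had means between -0.21 and 0.04.

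The other 6 cyclins held the most variable member. CCNG2, a cyclin linked to growth arrest, had 0.02, -1.01 and -0.17 against 2CB and 0.34, -1.01 and -0.14 against 8CB. The SDs were 0.55 and 0.68, the largest among members, beside medians of 0.13 and 0.16 over the members and 0.11 over all genes. CCNG2 replicate 2 stood far below the others in both comparisons. CCNYL1 had -0.11, -0.07 and -0.18 against 2CB (-0.12 ± 0.04, adjusted p = 0.248) and was the only member with 1 sign on all 12 arrays, which 2.69% of all genes had. Of its 3 probes 1 carried this, with -0.28 against 2CB and -0.45 against 8CB, while the other probes were at -0.01 and -0.07 against 2CB and at 0.07 and 0.09 against 8CB. CCNYL1, once turned, was at -0.04 against 2CB. CCNG1, CCNI, CCNJ and CCNY had means between -0.16 and 0.30.

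**Figure D4:**
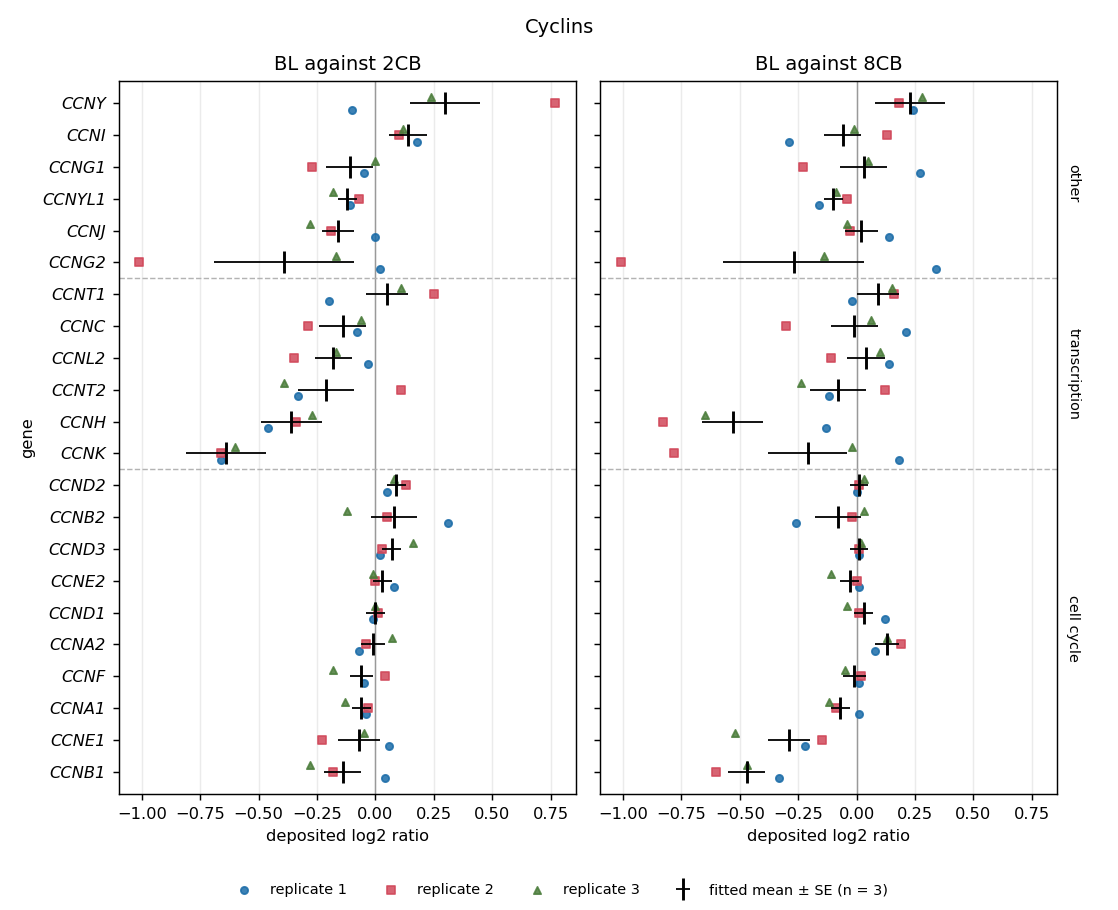
Deposited log2 ratios (horizontal axis) of the 22 cyclins (vertical axis), with 1 panel for BL against 2CB and 1 for BL against 8CB. Small points are the 3 replicates and large marks the means with SE; CCNK is lowest against 2CB at -0.64, CCNH lowest against 8CB at -0.53, and replicate 2 of CCNG2 lies at -1.01 in both.

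Counts of named members changed with the replicate left out, and so did the shares of all genes. Whether members changed more than all genes was not tested. Against 2CB, without replicate 3, 6 members met the threshold, all positive and none negative, where 9.74% of all genes did. Those 6 were CDK2, CDK2AP2, CDKAL1, CDK14, CDK19 and CDK2AP1. Without replicate 1 there were 17, 10 of them negative, and without replicate 2 there were 11, where 17.5% and 14.8% of all genes did. Against 8CB the count without replicate 3 was 4, namely CDKL1, CDKN2D, CDK2AP2 and CCNB1, where 4.50% of all genes did. Without replicates 1 and 2 in turn it was 14 and 9, where 14.3% and 10.6% did. Averaged ratios 1 and 2 against 8CB correlated at -0.209 over all probes.

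The arrested classes met only by way of BL, and their difference was taken by subtracting the value against 8CB from that against 2CB. No member or other gene passed an adjusted p under 0.05 by limma (0.0% of 15229), in a fit that did not pair the replicate numbers. At an unadjusted p under 0.05, 3 of 63 members (4.76%) were found, where 4.24% of all genes were. CCNB1 and CDK8 were positive (1.91% of all genes) and CDKL1 negative (2.33%). All 3 replicates lay on one side for 26 of 63 (41.3%), 14 positive and 12 negative, beside 33.7%, 17.6% and 16.2% of all genes. CCNB1 had differences of 0.37, 0.42 and 0.19, a mean of 0.33 ± 0.11 (SE, n = 3; adjusted p = 0.932). For CDK8 they were 0.23, 0.22 and 0.14, a mean of 0.20 ± 0.08. CDKL1 lay on the other side, with -0.86, -0.35 and -0.31, a mean of -0.51 ± 0.14. Each of the 3 kept 1 side in all 3 replicates. With the dyes turned, CCNB1 was at -0.08, CDK8 at -0.02 and CDKL1 at 0.01. Members at this threshold numbered 7 under the random block (5.53% of all genes), 7 with the fixed term (9.40%), 5 with BL in Cy3 alone (3.82%) and 0 when turned (0.972%).

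The 6 members with the smallest p also included CDK19, CDK14 and CDKN2AIPNL. CDK19 differed by 0.82, 0.24 and 0.40, a mean of 0.49 ± 0.21. As deposited, both Mediator kinases were thus on the positive side in all replicates. Their turned means were on the other side, at -0.07 for CDK19 and -0.02 for CDK8. CDK14 had 0.55, 0.38 and -0.01. CDKN2AIPNL had -0.43, -0.25 and -0.29, a mean of -0.32 ± 0.14. Of the 19 kinases 17 had a positive difference, with a median of 0.13, and 10 of 22 cyclins and 2 of 8 inhibitors did, beside 51.0% of all genes. With the values turned by the labelled dyes, 10 of 19 kinases were positive and the median was 0.01. CDKN2D, the inhibitor named against 8CB, differed by 0.11, -0.47 and -0.80, and its 95% interval ran from -0.93 to 0.15. That of CCNK ran from -1.03 to 0.17, so neither gene met the unadjusted threshold. CCNK met it under the random block and without replicate 2, and CDKN2D met it without replicate 1. Without replicate 1, 2 and 3 in turn, 4, 6 and 2 members met the unadjusted threshold, where 3.91%, 8.02% and 1.65% of all genes did.

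No member lay on opposite sides in all 3 replicates of the direct comparisons, as 1.98% of all genes did. The comparisons share the class BL, so the values of CDK2, CDK2AP2, CCNH and CDKN2B on 1 side in both are given side by side and not as independent measurements.

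For 5 members, CCNA2, CCND3, CDK10, CDKL3 and CDKL4, the sign followed the dye of BL on all 12 arrays, as it did for 5.68% of all genes. CCNA2 against 2CB read -0.38, -0.37 and -0.39 with BL in Cy3 and 0.25, 0.29 and 0.53 with BL in Cy5. CDK10, a kinase that pairs with cyclin M, read -0.36, -0.35 and -0.12 against 0.26, 0.36 and 0.32. CCND3 read -0.21, -0.29 and -0.10 against 0.26, 0.35 and 0.42. As deposited, CCND3 and CDK10 averaged between 0.00 and 0.07 in both comparisons, and CCNA2 averaged -0.01 against 2CB and 0.13 against 8CB. With the values turned by the labelled dyes, these 3 were the members called beside CDK2AP1. In that reading CCNA2 was at 0.37 against 2CB (limma adjusted p = 0.0153), CDK10 at 0.29 (adjusted p = 0.0153) and CCND3 at 0.27 (adjusted p = 0.0265). Against 8CB CCNA2 was at 0.26 (adjusted p = 0.0473), CDK10 at 0.27 (adjusted p = 0.0253) and CCND3 at 0.26 (adjusted p = 0.0388). A dye effect and a class difference cannot be told apart for these genes as long as the direction of the deposited ratios is unsettled.

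**Figure D5:**
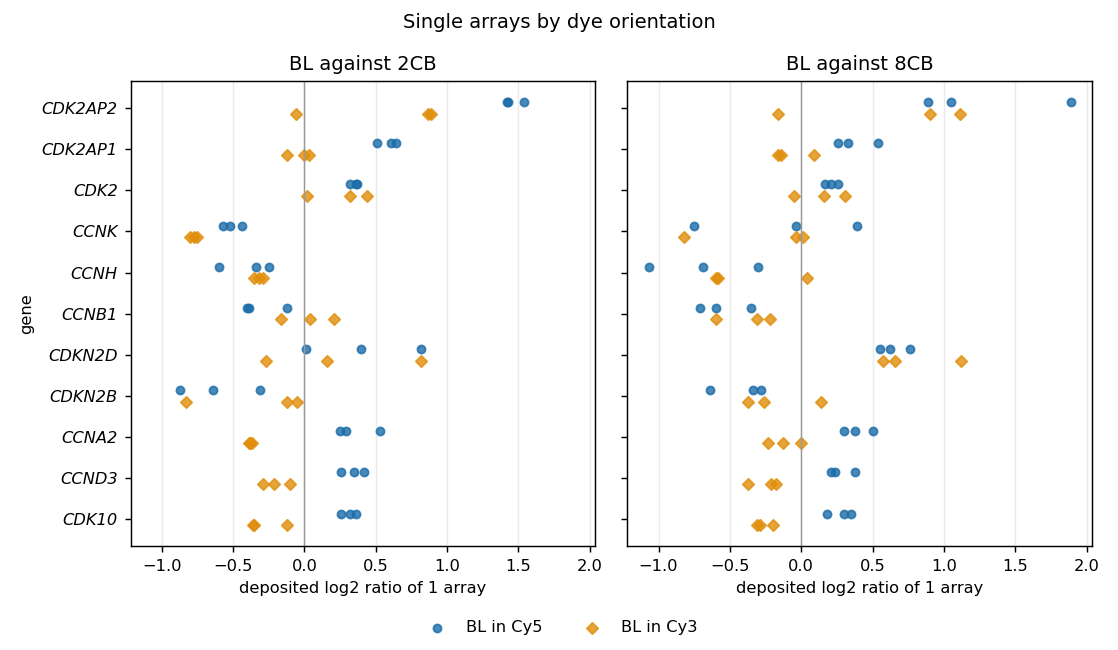
Deposited log2 ratios of single arrays (horizontal axis) for selected members (vertical axis), with 1 panel for BL against 2CB and 1 for BL against 8CB and the arrays marked by the dye that BL carried. CCNA2, CCND3 and CDK10 change side with the dye, whereas CCNB1 is negative on all 6 arrays against 8CB.

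Genes that act on these kinases were counted by list. Of 13 genes that set the phosphorylation of the kinases, 3 met the unadjusted threshold against 2CB, all positive (23.1%), where 18.0% of all genes did. They were CDC25A, a phosphatase that activates CDK2, with 0.33, 1.04 and 0.45, and ENSA, a mitotic inhibitor of the phosphatase PP2A, with 0.29, 0.41 and 0.22. The last was PPP2R1A, with 0.17, 0.14 and 0.12. Their turned means against 2CB were -0.07 for CDC25A, -0.09 for ENSA and 0.25 for PPP2R1A. WEE1, which holds CDK1 inactive, averaged 0.02 ± 0.04, and its oocyte paralog WEE2 had 0.46, 0.41 and 0.15. The median of that list was 0.01, as over all genes. Against 8CB 2 of 13 (15.4%) met it, where 11.0% of all genes did, ENSA positive and its paralog ARPP19 negative. Both were negative there when turned, at -0.11 and -0.12.

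Of 16 measured genes of cyclin and inhibitor turnover, 7 (43.8%) met the threshold against 2CB, 6 positive and 1 negative, with a median of 0.15, where 18.0% of all genes did. FZR1, an activator of the anaphase-promoting complex, had the smallest p of them, with 0.57, 0.52 and 0.24 against 2CB and -0.03, -0.02 and -0.23 against 8CB. FBXO5, an inhibitor of that complex, had 0.45, 0.63 and 0.34. CDC20, another activator of it, had 0.74, 0.24 and 0.13. CUL3, a ubiquitin ligase scaffold that acts on cyclin E, had -0.66, -0.39 and -0.22. Turned means against 2CB were -0.02 for FZR1, 0.22 for FBXO5, 0.17 for CDC20 and -0.09 for CUL3. Against 8CB 4 of 16 met it, beside 11.0% of all genes, and there FBXO5 had 0.18, 0.58 and 0.48 and CUL3 -0.08, -0.44 and -0.24. FBXO5 and CDC20, which act on that complex in opposite ways, were both positive in all 6 values.

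Of 14 pocket protein and E2F genes, 2 (14.3%) met it against 2CB and 3 (21.4%) against 8CB, beside 18.0% and 11.0% of all genes. The medians of the list were 0.01 and 0.05. RB1, the pocket protein that the D cyclin kinases phosphorylate, averaged -0.15 ± 0.11 and -0.05 ± 0.11. Of 17 measured genes of origin licensing and firing, 8 (47.1%) met it against 2CB, 3 positive and 5 negative, where 18.0% of all genes did. MCM5 had 0.49, 0.86 and 0.28, whereas MCM7, another subunit of the same helicase, had -0.16, -0.22 and -0.47. Their turned means were 0.11 and -0.06. Against 8CB 3 of 17 did, where 11.0% of all genes did. Of 18 partners of the transcriptional kinases, 4 (22.2%) met it in each comparison, beside 18.0% of all genes against 2CB and 11.0% against 8CB. MED13L, which joins the Mediator kinases to the complex, had 0.26, 0.62 and 0.37 against 2CB, and MED12L, another subunit of that kinase module, had 0.45, 0.25 and 0.72 against 8CB. When turned, these means were on the other side, at -0.20 for MED13L and -0.11 for MED12L. None of these genes passed an adjusted p under 0.05 as first fitted, and the lists were not tested as sets. Against 2CB the random block called 2, 1, 1, 3 and 1 genes of the lists, in the order given, where 6.34% of all genes were called. When turned, the counts there were 2, 2, 2, 0 and 1, where 5.96% of all genes were called. Against 8CB the block called 0, 0, 2, 1 and 0 (1.82% of all genes) and the turned fit 1, 1, 0, 0 and 0 (2.94%).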

How the data were processed

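Per the labels' protocols, the RNA pools were amplified, and Cy3 or Cy5 was then coupled to guanine. The authors deposited log2 ratios, 1 per probe and array (no log base is stated, so base 2 was assumed). Per the submitters' processing notes they used limma, whose version is not given there. How background was corrected, how arrays were normalized and what was filtered is not given in the sources used here. No intensities were used, so no probe could be called above background; with 12 arrays, their number limits precision. The array's build is not named, so no coordinates are given. Column medians lay between -0.003 and 0.01, so the columns were centred. The scale (log base) and direction remain unknown. Columns with BL in Cy3 were written to 9 decimals and those with BL in Cy5 to 6. The row outside the numbered probes read 0.1602 to 0.3441 on the 6 arrays with BL in Cy3 and -0.3765 to -0.077 on the 6 with BL in Cy5.

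Of 43795 rows, 1 lacked a value and 1 was not a numbered probe, and neither was used. GEO's platform annotation gave 1 symbol to 21790 probes, several to 0 and none to 22003. All 63 member symbols are current in assembly ARS-UCD2.0, and updating symbols would add CDK11B alone. Probes of a gene were averaged, then the dye-swapped arrays of a number, which are taken to hold the same pools. The 6 averaged ratios were fitted in R 4.3.3 with limma 3.58.1 (lmFit, eBayes). Each comparison had 1 coefficient, and both shared the estimate of the spread. Two-sided p-values were adjusted by Benjamini-Hochberg over 15229 genes, with a threshold of 0.05. They measure the spread between pools, which the labels call independent. The fit was tested on simulated data. Plots were made in Python 3.11.15 with matplotlib 3.10.9.

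Deviations from the group means correlated between the comparisons at 0.295, 0.393 and 0.349 for the same replicate number and at 0.00889 at most for others. The numbers were therefore taken to pair the samples. The main fit had no term for the number. Its SEs and p-values, also those between the arrested classes, thus leave this pairing unused. The labels do not say which pools are shared. Number 3 against 8CB was the pair of swapped arrays whose deviations correlated negatively, at -0.218. Fits with the number as a block used it within each comparison as a random term over 12 arrays with a dye coefficient, or across both comparisons as a fixed term over the averaged ratios. Only the fixed term thus used the pairing between the comparisons. Other alternatives were the turn by the labelled dyes, 1 dye orientation alone, separate fits, median centring, quantile normalization, robust moderation, the median of probes, each probe alone, updated symbols and each replicate left out.

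Values by replicate were given for 25 of 26 core genes, for up to 12 members per comparison with the smallest unadjusted p under 0.05, and for 6 between the arrested classes; other members are given by range, or were named for a value that stood out after their values were seen. The members, the core and the gene lists were chosen with earlier results of these data known.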

Additional observations from a re-analysis of the deposited data

How the results depend on the processing

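Against 2CB, where 0 genes and 0 members were called by limma, 907 genes and 4 members were called with the values turned by the labelled dyes, 966 and 7 with the replicate number as a random block, and 1613 (10.6% of all genes) and 8 with only the arrays that carry BL in Cy5. Against 8CB, also at 0 and 0, these settings called 447 and 4, 277 and 4, and 403 (2.65%) and 3, and quantile normalization called 16 genes and 0 members. The replicate block as a fixed term called no member in any comparison, nor did the arrays with BL in Cy3 alone. No block called a member between the arrested classes. At an unadjusted p under 0.05, the 13 members against 2CB became 21 under the fixed replicate block, 26 with BL in Cy5 alone, and 6 to 17 with 1 replicate left out. The 11 against 8CB became 18 when turned, 17 with each probe on its own, and 4 to 14 with 1 replicate left out. The 3 between the arrested classes became 0 when turned, 7 under either replicate block, 5 with BL in Cy3 alone, 8 with each probe on its own, and 2 to 6 with 1 replicate left out. CCNA2 against 2CB changed from -0.01 to 0.37 when turned and to 0.36 with BL in Cy5 alone. The cause of these shifts was not tested. Of 94 named values, all above the adjusted threshold as first fitted, 29 changed sign in at least 1 of the fits without a replicate. The 26 with an unadjusted p under 0.05 all had their 3 replicates on one side. Leaving 1 replicate out could therefore not change their sign, and these fits say nothing about it. Under median centring, robust moderation, updated symbols and both replicate blocks no named value changed sign, and quantile normalization changed 2. When turned, 37 of 94 changed sign, 10 of the 26 among them. By size, 45 moved by more than their spread without a call, 43 did not, 5 became called on the same side and 1, CCNA2, on the other. Precision was limited by 3 averaged ratios per comparison and by the lack of intensities.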
